A study of Mus musculus with 3 samples.

Results

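The array of E14.5 fetal liver labelled DNase II-deficient was compared with the array of E14.5 wild-type fetal liver, across all genes and mainly outside the interferon-stimulated genes. The members were all probes with a value in both arrays, 20174 of 20289 on the array, and those naming a single gene stood for 13702 genes. E14.5 is the stage of the mouse embryo in days of gestation. Each genotype was measured on 1 single-colour CodeLink array, and the series holds 3 arrays, the third from embryos deficient in DNase II and in IFN-IR, which is not used here. The wild-type group carries no stated mutation, and the other group is described only as deficient in DNase II. The labels do not state the allele, the mouse strain or how many embryos were pooled for an array. With 1 array per genotype no difference has a replicate check, and no test, standard error or p-value is given.

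DNase II is an acid nuclease of the lysosome. In fetal liver, central macrophages of the erythroblastic islands engulf the nuclei that maturing red cell precursors expel, and DNase II digests the DNA of those nuclei. Embryos without the enzyme are known for undigested DNA in these macrophages, for a strong type I interferon response and for anaemia. The fetal liver also holds hepatoblasts, endothelial and stellate cells and the precursors of white cells and platelets, so 1 array sums the RNA of many cell types.

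The genotype of the array could not be checked from its target. The probe for Dnase2a, which encodes the nuclease, read 40.4 in wild-type and 48.6 in the other array, and no source used here says whether it lies in the deleted part. The direction of every difference therefore follows the label, and that array is also called the labelled mutant. Of 24 genes that flank Dnase2a in the RefSeq order, 12 on each side, 18 could be compared, 1 was at least 2-fold higher and 2 were at least 2-fold lower. The median of these 18 log2 differences was -0.52. The nearest neighbour on one side, Klf1, a transcription factor of red cell precursors, was 2.59-fold lower, and Junb, an immediate early gene 4 places away on the other side, went from 0.344 to 1.31. The calcium channel gene Cacna1a read 14.3 and 6.73. The neighbours thus lay on both sides of 0, with more of them below it, as was also so for all genes compared (5514 of 8389 below 0).

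Both arrays held values on nearly the same scale. The median intensity was 0.959 in each, and the 75th percentile was 5.08 in wild-type against 4.63 in the labelled mutant. Lower values were raised to a floor, the 25th percentile of each array (0.162 and 0.159), and 11507 genes were above this floor in at least 1 array. A gene was compared when it exceeded the array median in at least 1 array, which 8389 genes did. Their median log2 difference, labelled mutant minus wild-type, was -0.21, and over all 11507 measured genes it was -0.16. Each gene list below is described beside these values. A difference of at least 2-fold was seen upward in 645 of them (7.69%) and downward in 517 (6.16%), and one of at least 4-fold upward in 224 (2.67%) and downward in 46 (0.548%). Higher genes were 55.5% of the 2-fold calls on the deposited scale, and this share was 65.9% with quantile normalisation, 67.1% with 75th percentile scaling, 74.4% with cyclic loess and 73.7% with centring on the median.

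Outside the interferon-stimulated and antigen presentation genes, the array labelled DNase II-deficient still differed in both directions. Among 8252 such genes, 532 (6.45%) exceeded wild-type by 2-fold or more and 517 (6.27%) were below it by as much. At 4-fold the directions were uneven, with 138 genes (1.67%) higher and 46 (0.557%) lower. The other 137 compared genes were on the interferon-stimulated lists, and 113 of them were at least 2-fold higher and 0 were 2-fold lower. By level, the share of higher genes was largest among dim genes, where the level filter itself favours differing genes. A gene passed if 1 array exceeded its median, so the genes of lowest mean passed only through the array where they were brighter. The shares by bin therefore do not show how differences depend on level. With the 8252 genes ranked by mean level and divided into 4 equal bins, 12.5% of the dimmest bin were at least 2-fold higher and 2.96% of the brightest, whereas 2-fold lower genes made up 6.50% and 6.54% of these bins. Over all 8389 genes compared, whatever their level, the log2 differences had a spread of 0.50 about their median. Probes that name no gene were left undescribed. There were 1746 of them above the level filter, 4.47% higher and 7.73% lower by 2-fold or more.

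**Figure D1:**
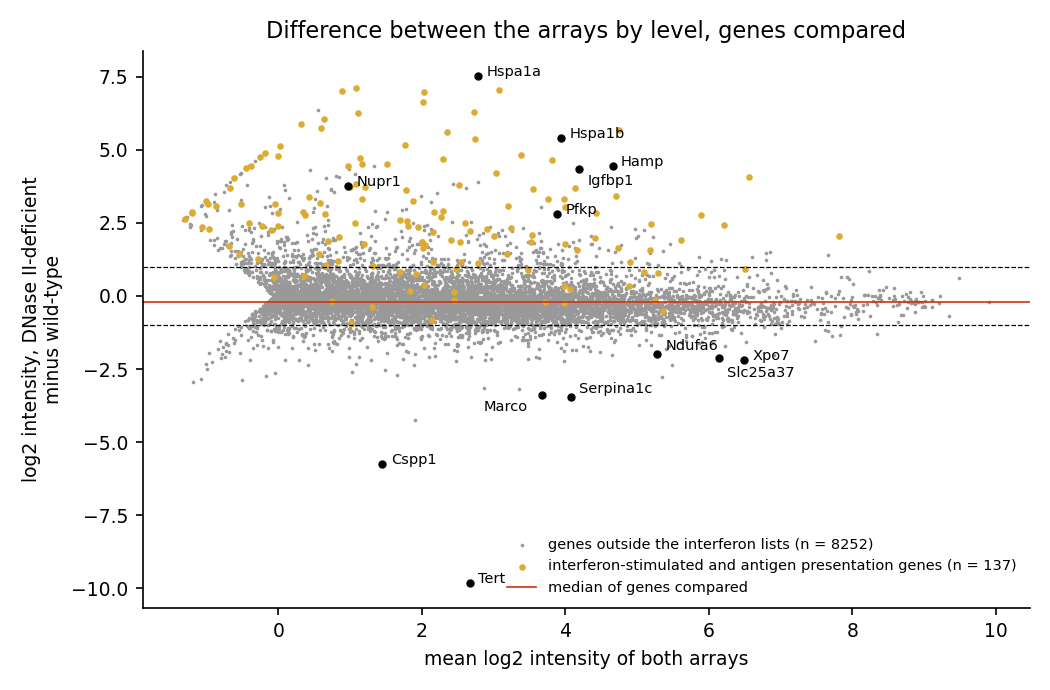
Log2 intensity of the array labelled DNase II-deficient minus wild-type (vertical axis) against the mean log2 intensity of both arrays (horizontal axis) for the 8389 genes compared, 1 point per gene. The 137 interferon-stimulated genes are in yellow, dashed lines mark 2-fold and the red line is the median of -0.21. Named genes outside the yellow group lie far from the cloud in both directions, and the slanted edges on the left are genes at the floor of 1 array.

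The Hsp70 pair Hspa1a and Hspa1b stood highest, while most other chaperones were within 2-fold. Of 40 heat shock and co-chaperone genes on the array, 32 were compared, 4 exceeded wild-type by at least 2-fold and none was 2-fold lower, and the median over the 38 measured members was -0.30. Hspa1a, which encodes the stress-inducible Hsp70 chaperone, read 0.509 in wild-type and 93.3 in the labelled mutant. Its neighbour Hspa1b read 2.37 and 100.4. The proteins of this pair are near identical and signal of one probe may come from both genes. The small heat shock proteins Hspb1 and Hspb8, which hold misfolded proteins in solution, were 3.88-fold and 3.13-fold higher, at 0.779 and 3.02 and at 1.61 and 5.03. The constitutive Hspa8 read 242 and 192, the mitochondrial chaperonin Hspd1 146 and 90.4, the Hsp90 gene Hsp90aa1 81.3 and 77.6, and the Hsp70 helper Hsph1 1.89 and 1.32. Dnajb1, the co-chaperone of inducible Hsp70, was the most strongly lower member, at 12.7 and 6.42.

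The promoters of these genes are shown because heat shock genes are known to be driven through a repeated element, and a member that was not higher, Hsph1, is set beside 3 that were. Sequences are from RefSeq on build GRCm38.p6, 250 bases before the start on the gene's own strand, with the letters GAANNTTC or TTCNNGAA in capitals. Both forms read the same on either strand.
Hspa1a (chr17:34972157-34972406, minus strand): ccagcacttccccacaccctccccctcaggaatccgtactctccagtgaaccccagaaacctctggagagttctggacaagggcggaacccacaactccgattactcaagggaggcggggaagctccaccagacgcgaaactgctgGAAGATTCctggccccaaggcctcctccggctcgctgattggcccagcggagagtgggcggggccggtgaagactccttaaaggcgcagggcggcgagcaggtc
Hspa1b (chr17:34959239-34959488, minus strand): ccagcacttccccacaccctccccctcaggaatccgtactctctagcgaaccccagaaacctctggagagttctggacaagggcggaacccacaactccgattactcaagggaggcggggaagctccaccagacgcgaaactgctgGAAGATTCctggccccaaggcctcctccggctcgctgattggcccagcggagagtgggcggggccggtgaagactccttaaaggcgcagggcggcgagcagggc
Hspb1 (chr5:135887669-135887918, plus strand): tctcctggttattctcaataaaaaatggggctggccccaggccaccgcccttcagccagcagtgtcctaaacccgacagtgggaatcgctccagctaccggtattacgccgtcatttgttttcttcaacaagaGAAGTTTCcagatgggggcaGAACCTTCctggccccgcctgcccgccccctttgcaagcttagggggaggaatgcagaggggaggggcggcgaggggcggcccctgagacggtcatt
Hsph1 (chr5:149636337-149636586, minus strand, the first of its windows): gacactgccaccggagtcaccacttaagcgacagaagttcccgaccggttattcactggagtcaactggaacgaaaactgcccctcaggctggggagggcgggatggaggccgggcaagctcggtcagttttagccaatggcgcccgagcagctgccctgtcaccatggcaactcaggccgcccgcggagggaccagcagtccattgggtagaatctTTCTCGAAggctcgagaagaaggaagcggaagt
The windows of Hspa1a and Hspa1b, each of 300 bases up to 50 after the start, differed in 4 bases, and each held the element once, 104 bases before the start. Hspb1 held it at 117 and 97 bases before the start. Hsph1, which was not higher, also held it, 33 bases before the start. Neither of the windows given for Dnajb1 held it. Over windows of 300 bases, all 4 higher genes had the element, as did 15 of the 28 compared heat shock genes that had a window, the 4 included. The element was in 12% of windows of all genes compared and in 15.1% of the 32851 windows given. A match is a description of the letters and does not show a bound site.

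Immediate early genes, which cells transcribe within minutes of a stimulus without new protein, were higher as a group. Of 40 on the array, 32 were compared, 14 were at least 2-fold higher and 0 were 2-fold lower, and the median over 39 measured members was 0.69. Jun, a subunit of the AP-1 transcription factor, read 1.21 and 13. Its partner Fos read 0.193 and 1.29, close to the floor in wild-type. Gadd45b, a stress sensor, was 8.46-fold higher, at 0.318 and 2.69, and Zfp36, which binds AU-rich messages and speeds their decay, was 5.80-fold higher, at 2.68 and 15.5. The matrix-associated signals Ccn2 and Ccn1 were 7.87-fold and 5.23-fold higher. Dusp6, which switches off the ERK kinase, read 1.51 and 7.05, and Rgs2, which damps G protein signalling, 15.0 and 50.2. The members were not uniform, since Klf10 read 2.95 and 1.59, Fosb 1.84 and 1.34, Klf2 10.7 and 8.33 and Btg2 5.29 and 4.25. None of the 12 promoter windows given for the higher immediate early genes held the AP-1 letters TGANTCA. As 5.94% of windows of all genes compared held them, 12 windows are too few to show a difference. Among genes at least 4-fold higher outside the interferon-stimulated lists, 19 of 121 windows (15.7%) held these letters.

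The amino acid and endoplasmic reticulum stress responses slow translation and raise chaperones and amino acid supply. Most of their genes were within 2-fold, but the share of higher members exceeded that of all genes compared. Of 34 compared (39 on the array), 28 were within 2-fold, 6 (17.6%) were at least 2-fold higher and 0 were lower. Over all genes compared, 7.69% were at least 2-fold higher. The median over 37 measured members was 0.14. Nupr1, a small stress-induced nuclear protein, read 0.534 and 7.21, 13.5-fold higher. The transcription factor genes Cebpb and Ddit3, the latter known as Chop, read 1.87 and 8.92, and 13.4 and 34.8. Ero1a, the oxidase that forms disulfide bonds in the endoplasmic reticulum, was 3.72-fold higher. Vldlr, the lipoprotein receptor, went from 0.696 to 3.0 on one probe and from 0.245 to 0.733 on the other. The synthetic enzymes on the list were not among the higher genes, with Asns at 100.3 and 69.5, Psph at 34 and 23.0 and Phgdh at 17.6 and 13.4. Ppp1r15a, which restarts translation, read 51.2 and 34. All 15 aminoacyl-tRNA synthetases compared lay within 2-fold, with a median of -0.28.

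Glycolytic enzymes showed one set of isoforms higher and another lower. Of 24 compared (26 on the array), 8 were at least 2-fold higher and 1 was at least 2-fold lower, with a median of 0.49 over 25 measured. Pfkp, the platelet-type phosphofructokinase, read 5.59 and 39.1, 6.99-fold higher. The muscle-type isoform Pfkm read 15.9 and 8.26. Pkm, the pyruvate kinase of most tissues, was 3.15-fold higher, at 9.87 and 31.1, whereas Pklr, the isoform of liver and red cells, read 8.39 and 4.55. Hexokinase 2 (Hk2) went from 7.95 to 24.2, aldolase A (Aldoa) from 8.13 to 27.6, and the lactate exporter Slc16a3 from 3.29 to 11.8. Pgk1 and Pgam1, which act in the lower part of the pathway, were 2.5-fold and 2.35-fold higher. The 2-fold lower member was Bpgm, at 17.3 and 8.13, which makes 2,3-bisphosphoglycerate in red cells, and it was within 2-fold under each of the 4 rescalings. Higher and lower members were thus parted by isoform in the phosphofructokinase and pyruvate kinase pairs, although neither Pfkm nor Pklr reached 2-fold.

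Signals and sensors of low oxygen were higher too. Of 34 compared genes of oxygen sensing and vascular signalling (42 on the array), 12 were at least 2-fold higher and 0 were lower, with a median of 0.72 over 40 measured. Among secreted factors, the stanniocalcin gene Stc2 read 0.282 and 3.93, 13.9-fold higher. Its relative Stc1, at the floor in wild-type, was at least 11.1-fold higher. Placental growth factor (Pgf) read 0.349 and 3.55, Vegfc 0.545 and 1.5, and the vasoconstrictor gene Edn1 0.444 and 1.14. The prolyl hydroxylase Egln1, which marks hypoxia-inducible factors for destruction, was 2.15-fold higher, and P4ha1, which hydroxylates collagen, read 3.39 and 7.09. Receptors were not among the higher members: Tek read 1.94 and 1.37, and Flt4, the receptor of Vegfc, 3.25 and 2.34. Bnip3 and Bnip3l, mitophagy genes of 1 family, differed in direction, at 15.6 and 74.7 and at 83.7 and 52.8, and Bnip3l is known to clear mitochondria from maturing red cells. Hif1an, the hydroxylase that limits the activity of hypoxia-inducible factors, read 8.17 and 5.85.

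The core of the hypoxia response element, ACGTG, is shown in capitals on both strands (CACGT on the other), again from RefSeq on GRCm38.p6. The genes shown, a lactate exporter and an enzyme, are higher genes picked because they held it.
Slc16a3 (chr11:120948817-120949066, plus strand): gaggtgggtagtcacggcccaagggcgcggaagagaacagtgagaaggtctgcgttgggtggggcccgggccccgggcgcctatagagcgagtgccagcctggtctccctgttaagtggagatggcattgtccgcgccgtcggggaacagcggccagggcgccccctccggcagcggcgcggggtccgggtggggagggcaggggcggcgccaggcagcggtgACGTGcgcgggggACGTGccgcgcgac
Pgk1 (chrX:106186850-106187099, plus strand): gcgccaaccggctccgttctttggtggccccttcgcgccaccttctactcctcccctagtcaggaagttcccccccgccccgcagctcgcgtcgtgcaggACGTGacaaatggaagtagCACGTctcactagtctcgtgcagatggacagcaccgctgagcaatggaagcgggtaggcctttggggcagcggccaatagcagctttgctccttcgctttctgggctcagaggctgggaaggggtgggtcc
Slc16a3 held the core at 27 and 14 bases before the start, and Pgk1 at 150 and 131. Pfkp and Stc2, which were more strongly higher, did not hold it in their windows. Over windows of 300 bases, 7 of the 8 higher glycolysis genes had it, as did 16 of all 24 compared, and 6 of 11 higher oxygen genes with a window had it, as did 12 of 29 compared. Of all genes compared that had a window, 1918 of 6820 had the core. By window it was in 24.3% of those of genes compared and in 19.6% of all windows given.

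**Figure D2:**
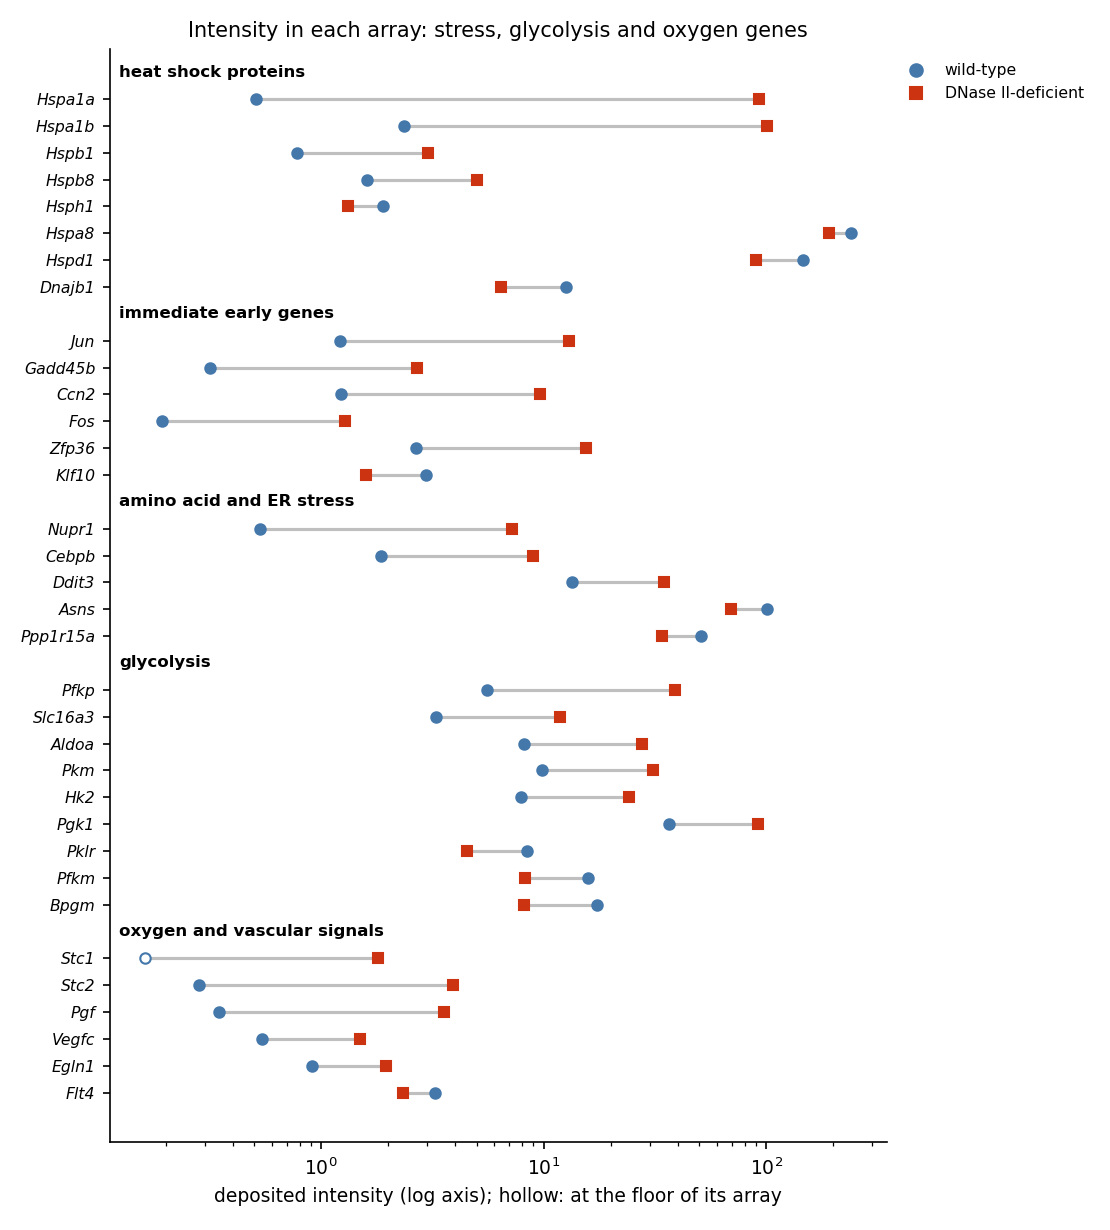
Deposited intensity on a log axis of genes named in the text, wild-type as blue circles and the array labelled DNase II-deficient as red squares, 1 array each. Inducible heat shock, immediate early and most oxygen genes lie to the right in the labelled mutant, while Hspd1, Asns, Pklr and Flt4 lie to the left, and the hollow Stc1 point is at the wild-type floor.

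Insulin-like growth factor genes, a system of growth signals made by fetal liver, were near wild-type except for binding proteins. Of 13 compared, 3 were at least 2-fold higher and 0 were lower. Igfbp5 read 2.86 and 6.49 on one probe, with the other probe below the floor in both arrays, and Igfbp3 read 1.99 and 4.28. Igfbp1 rests on 1 probe, at 4.06 and 82.8. The ligand genes Igf2 and Igf1 read 177 and 147, and 4.37 and 2.67, and the receptor Igf1r 8.2 and 6.75. Ligands and receptor therefore lay within 2-fold.

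Inflammatory signalling lists held higher members among inhibitors, receptors, ligands and transcription factors, and 1 lower receptor. Of 22 compared NF-kB genes (30 on the array), 5 were at least 2-fold higher and 0 were lower, with a median of 0.33. Nfkbia, the inhibitor that holds NF-kB in the cytoplasm and is itself an NF-kB target, read 7.27 and 40.9, 5.63-fold higher. Tnip1 and Tnip2, which restrain the pathway, were 2.98-fold and 2.5-fold higher, Relb, a subunit, 2.89-fold. Tnfaip3, another inhibitor, read 2.08 and 1.63. Of 23 compared interleukins and their receptors (65 on the array), 6 were at least 2-fold higher and 0 were lower. Of these 23, 2 are on the interferon lists. Il1r2, a decoy receptor for interleukin 1, read 0.418 and 5.02, 12-fold higher, and Il1b itself 0.201 and 1.54. The receptor chain Il17rb was 3.46-fold higher. Il16, a ligand, was 2.46-fold and Il15, also on the interferon lists, 3.64-fold higher. Most of the interleukin genes were too dim to be compared. Among 17 genes of the interleukin 6 family and STAT3 signalling, 4 were at least 2-fold higher. Fgl1, a liver protein induced by interleukin 6, was at least 18.1-fold higher, Cebpd 4.16-fold and the shared receptor chain Il6st 2.38-fold higher, the last on 1 of its probes, the other being below the floor in both arrays. The feedback inhibitors Socs1, also on the interferon lists, and Socs3 read 0.373 and 2.65, and 1.47 and 2.12. TNF and TNF receptor genes, 1 of them on the interferon lists, divided 2 higher (13.3%) and 1 lower (6.67%) of 15 compared. Over all genes compared, 7.69% were higher and 6.16% lower by 2-fold or more. Tnfsf9 read 1.09 and 2.42, and the receptor Tnfrsf25 6.44 and 2.43.

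Myeloid cell markers were higher beside these genes. Of 22 monocyte and recruited macrophage markers, 18 were compared, 14 were at least 2-fold higher and 0 were lower, with a median of 2.05, and their summed intensity went from 78.3 to 350.1. Fcgr4, an activating antibody receptor, read 0.501 and 4.02, Fpr2, a receptor for formylated peptides, 1.19 and 9.11, Ccr2, the chemokine receptor of blood monocytes, 0.910 and 2.85, and Cybb, the oxidase subunit of phagocytes, 0.728 and 3.38. Of 3 members that are also on the interferon lists, Ms4a4c read 0.726 and 35.7. Neutrophil markers gave 9 of 11 compared at least 2-fold higher, with the sum going from 286 to 804. Among them the granule proteins Ltf and Elane read 7.17 and 22.4, and 21.9 and 60.5. The resident macrophage list had a sum of 259 and 266, with 4 of 15 compared at least 2-fold lower and 1 higher, Lyz2, at 24.6 and 52.2, to which the rescalings added up to 3 others. The lower markers were the scavenger receptor Marco, at 41.1 and 3.98, Cd5l, at 30.6 and 3.41, the ficolin gene Fcna, at 21.7 and 2.43, and the Kupffer cell lectin Clec4f, at 1.27 and 0.177. Of 13 compared growth factor, receptor and transcription factor genes of the myeloid line, 3 were at least 2-fold higher and 2 lower (0 or 1 under the rescalings). The receptor chains Csf2ra and Csf2rb2 for granulocyte-macrophage growth factor read 3.31 and 8.03, and 2.08 and 7.09, and Gfi1, a transcription factor of granulocytes, 0.278 and 1.04, while stem cell factor (Kitl) read 16.2 and 7.66. Of 13 compared genes of alternatively activated macrophages, 10 were within 2-fold, against 86.1% of all genes compared. Gpnmb, a glycoprotein of lipid-loaded macrophages at the floor in wild-type, was at least 13.8-fold higher, Chil1 read 0.473 and 1.21, Ccl24 2.98 and 0.985, and Arg1 4.37 and 2.74. The part of myeloid cells in the cytokine and receptor values was not tested.

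Surface receptors of white cells followed the myeloid markers. Of 25 compared C-type lectins and Siglecs (59 on the array), 10 were at least 2-fold higher and 1, Clec4f, lower. Clec4d, Clec5a, Clec4a3 and Clec4n, lectins of monocytes and neutrophils, were among the 10, with Clec4d at 0.223 and 2.19 and Clec5a at 1.98 and 6.25. Klrk1, the NKG2D receptor of natural killer cells, read 0.172 and 2.03, close to the floor in wild-type. The T cell genes Cd3e, Cd3g and Cd8a and the natural killer cell genes Prf1 and Klrb1c were at the floor in both arrays. Of 7 compared T and NK markers, 2 were at least 2-fold higher, Klrk1 among them. Eomes was the 1 lower marker, at 18.2 and 6.36 on its brighter probe. Asgr1, the asialoglycoprotein receptor of hepatocytes, was also higher, at 2.24 and 8.35. Of 7 compared Ms4a genes, 6 were at least 2-fold higher, 4 of the 7 being on the interferon lists. Ms4a3, a gene of granulocyte precursors, read 7.77 and 21.3. Among 11 compared S100 genes, 4 were at least 2-fold higher and 2 lower. S100a8 and S100a9, the calprotectin of neutrophils, read 68.4 and 194, and 124 and 329.8, S100a6 5.06 and 17.5, while S100g and S100a14 read 4.49 and 1.64, and 1.11 and 0.439.

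Receptors with which macrophages clear dying cells differed by member. Of 29 compared (39 on the array), 5 were at least 2-fold higher and 3 lower, with a median near 0 that turned positive under each of the 4 rescalings, where 6 to 8 were higher and 1 or 2 lower. Higher were the scavenger receptor Msr1, at 1.83 and 6.79, the endotoxin co-receptor Cd14, at 0.876 and 3.32, and Anxa1, a protein that limits neutrophil entry, at 16.0 and 62.4. Pparg, a nuclear receptor of lipid-loaded macrophages, was 7.23-fold higher, at 0.519 and 3.75. Lower were Marco, Stab2, a hyaluronan receptor of liver sinusoids, at 23.0 and 10.2, and Timd2, a ferritin receptor, at 7.29 and 3.52. The bridging receptor Mertk read 1.99 and 1.93, and its relative Axl 0.886 and 1.54. Of the vacuolar proton pump, which acidifies the lysosome in which DNase II acts, 15 of 17 compared subunits lay within 2-fold. Over all genes compared, 86.1% did. Tcirg1, the pump's subunit of osteoclasts and white cells, read 4.57 and 12.6, and Atp6v0a1 4.46 and 2.15. Autophagy genes were within 2-fold in 22 of 23 cases, the exception being the lysosomal membrane protein Lamp2, at 8.83 and 18.9.

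Single genes of cell death were higher, in 2 families. Of 14 compared Bcl2 family genes, 3 were at least 2-fold higher: Bcl2a1b, a survival protein of white cells, at 1.71 and 21.9, Pmaip1, the death-promoting Noxa, at 0.929 and 6.92, and Bnip3. The Bcl2a1 copies are near identical, so the Bcl2a1b signal may be shared among them. The other death-promoting genes Bbc3 and Bcl2l11 read 1.20 and 1.58, and 1.08 and 1.59. Of 26 compared caspase and death receptor genes, 5 were at least 2-fold higher, among them the inflammasome adaptor Pycard at 4.66 and 11, and 1, Apaf1, which starts the apoptosome, was lower, at 1.74 and 0.700. The list has 4 members on the interferon lists. Casp1, Casp4 and Casp12 are among these and also among the 5 higher genes, the others being Birc3 and Pycard. Over all genes outside the interferon lists, 6.45% were at least 2-fold higher. Among 39 compared DNA damage response genes 1 (2.56%) was at least 2-fold higher and 2 (5.13%) were lower. Both shares were below the 7.69% and 6.16% of all genes compared. The cell cycle inhibitor Cdkn1a was the higher one, while Mdm2 and Ccng1, which like Cdkn1a are targets of p53, read 0.781 and 1.20, and 5.20 and 7.95, and the checkpoint kinase Chek2 14.3 and 6.52.

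Matrix genes were higher across collagens and the enzymes that cross-link them. Of 34 compared (48 on the array), 11 were at least 2-fold higher and 0 were lower, with a median of 0.72 over 43 measured, and the number higher was 15 to 18 under the 4 rescalings. Col6a1 read 1.79 and 7.11, Col5a2 7.06 and 20.3, and the basement membrane collagens Col4a1 and Col18a1 3.76 and 8.48, and 5.76 and 13.6. The cross-linking oxidases Lox, Loxl1 and Loxl2 were 2.97-fold, 2.14-fold and 3.59-fold higher, and Timp1, which inhibits matrix proteases, 3.49-fold. Vitronectin (Vtn), which hepatocytes secrete, read 66.5 and 42.1. Markers of stellate and mesenchymal cells were higher beside them. Of 17 compared, 6 were at least 2-fold higher and 0 were lower, their summed intensity went from 210.1 to 332, and Hand2 and Ngfr were at the floor in both arrays. Pdgfrb, the receptor of pericytes and stellate cells, read 1.20 and 4.11, and the contractile genes Tagln and Acta2 1.98 and 9.75, and 6.4 and 16.2. The part of stellate cells in the matrix values was not tested.

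Adhesion molecules of white cells and endothelium were higher, and single others lower. Of 25 compared integrins and adhesion molecules, 8 were at least 2-fold higher and 3 lower. Itgam and Itgb2, the chains of the white cell integrin Mac-1, were 4.54-fold and 2.60-fold higher, and the endothelial genes Mcam, Icam2, Pecam1 and Esam were 3.41-fold, 2.81-fold, 2.60-fold and 2.34-fold higher. Icam4, the Landsteiner-Wiener protein of red cells, read 10.9 and 2.91, Icam5, a neuronal adhesion molecule, 1.06 and 0.348, and Cdh4 4.16 and 2.07. Endothelial markers summed to 99.98 and 102, with 4 of 18 compared at least 2-fold higher and 1, Stab2, lower. Among TGF-beta, activin and BMP genes, 5 of 23 compared were at least 2-fold higher and 0 were lower. Tgfb3 read 2.02 and 6.0, and Bmp6, which signals iron load to hepatocytes, 0.925 and 2.42. Id1, a target of BMP signalling, was 2.13-fold higher. Those 5 became 6 to 9 under the 4 rescalings. Wnt and Notch genes were within 2-fold in 16 of 18 cases, near the 86.1% of all genes compared. Wnt4, one of the exceptions, was higher on 1 of its probes only, at 0.302 and 1.32, against 0.182 and 0.175 on the other.

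**Figure D3:**
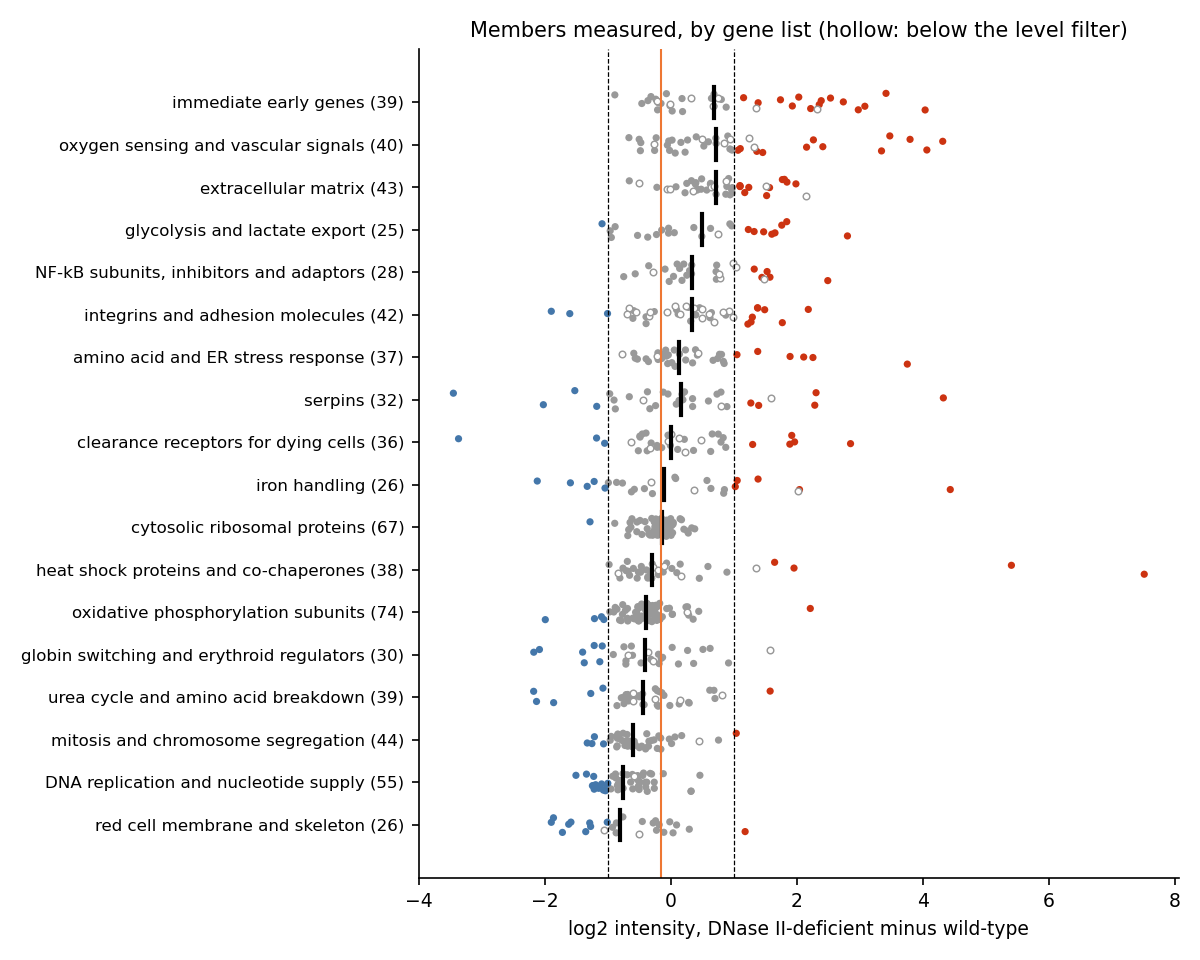
Log2 intensity of the array labelled DNase II-deficient minus wild-type for the measured members of 18 gene lists, 1 point per gene, with the number measured in brackets. Red and blue points are at least 2-fold higher and lower, hollow points were below the level filter, black bars are list medians, dashed lines mark 2-fold, and the orange line is the median of all measured genes, -0.16. Immediate early, oxygen and matrix genes spread to the right, and DNA replication and red cell membrane genes lie to the left of the orange line.

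Red cell genes of the membrane and the regulators held many lower members, while the adult globins differed little, Hba-a1 at 632 and 482. Of 24 compared genes of the red cell membrane and skeleton (26 on the array), 9 were at least 2-fold lower and 1 was higher, with a median of -0.81 over 26 measured. Rhd, the Rhesus antigen, read 136 and 41.3, beta spectrin (Sptb) 159 and 52.8, the Kell antigen gene Kel 92.0 and 37.7, and the skeleton protein gene Dmtn 19.5 and 6.35. The higher member was Tpm1, a tropomyosin that smooth muscle also makes, at 1.14 and 2.59, and the general cytoskeletal gene Actb read 292 and 299.8. Of 26 compared erythroid regulators, 7 were at least 2-fold lower and 0 were higher, and 4 to 6 were lower under the rescalings. Xpo7, a nuclear transport receptor abundant in erythroblasts, was lower on both probes, at 192 and 42.4 and at 4.56 and 0.815. The transcription factors Nfe2 and Gata1 read 33.1 and 12.5, and 16.7 and 7.64, and the erythropoietin receptor Epor 10.9 and 4.68. Not every regulator was lower, with the stem cell factor receptor Kit at 9.13 and 13 and the globin regulator Sox6 at 4.18 and 6.44. The erythroid marker list had 12 of 18 compared at least 2-fold lower, 0 higher and a sum of 2422 and 1643, and the stem and progenitor list gave 10 of 11 compared within 2-fold. Fewer red cell precursors and less of each message per precursor cannot be told apart in RNA of whole liver.

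Iron genes differed in both directions, 5 higher and 5 lower of 23 compared, the lower ones numbering 3 to 4 under the rescalings. Lower were genes with which erythroblasts take iron into mitochondria and use it: Glrx5, an iron-sulfur cluster protein, at 359.8 and 143, Abcb10, which stabilises the mitochondrial iron importer, at 72.9 and 31.3, and Steap3, a ferrireductase, at 2.78 and 1.35. Tmprss6, the hepatocyte protease that restrains hepcidin, was 3.02-fold lower, at 116 and 38.5. Hepcidin itself, Hamp, was higher, and so was haptoglobin (Hp), which binds free haemoglobin, at 10.1 and 41.7. Slc11a1, an iron and manganese exporter of phagosomes, read 1.39 and 2.89. Haem oxygenase 2 (Hmox2) read 5.42 and 11.9, and haem oxygenase 1 (Hmox1) 43.6 and 78.0. Both sides of the list thus held genes known from hepatocytes, Tmprss6 on the lower and Hamp on the higher side.

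Genes of DNA synthesis were lower by small steps. Of 54 compared (55 on the array), 14 were at least 2-fold lower against 0 higher, with a median of -0.76 over 55 measured. The count depended on the scaling, with 6 lower after quantile normalisation, 9 after 75th percentile scaling, 3 after cyclic loess and 6 after centring, while the median stayed between -0.62 and -0.49. Among parts of the origin complex and helicase, Orc2, Orc1 and Orc6 were 2.22-fold, 2.21-fold and 2.0-fold lower and Mcm3 and Mcm4 2.34-fold and 2.05-fold lower. Rpa2, a single-strand binding protein, read 12.7 and 5.35, and E2f4, a repressor of cell cycle genes, 31.7 and 13.6. Orc3 and Orc4 read 6.67 and 9.18, and 7.03 and 8.79. Of 43 compared mitosis genes, 4 were at least 2-fold lower (2 or 3 under the rescalings) and 1 higher, with a median of -0.59. The phosphatase genes Cdc25b and Cdc25a differed in direction, at 27.8 and 11.1 and at 1.22 and 2.51. Histone genes gave 3 higher and 1 lower of 12 compared, the linker histones H1f4 and H1f1 higher, at 0.363 and 2.87 and at 0.555 and 2.01, and H1f2 lower, at 1.22 and 0.290. Histone copies are similar in sequence, so single probes may read several.

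Housekeeping machinery stayed mostly within 2-fold. This held for 66 of 67 ribosomal proteins compared, for all 32 proteasome subunits and for 50 of 53 translation factors. The higher translation factors were Eif2ak2, which is on the interferon lists, and Eif2s3y, at 5.07 and 11.1. The lower one was Eif5, at 87.3 and 42.6. Eif2s3x, the X-linked counterpart of the Y-linked Eif2s3y, read 6.08 and 4.06. Embryo sex is not among the labels used here, and its part in these values was not tested. The ribosomal median was -0.15 as deposited and turned positive under quantile normalisation, cyclic loess and centring. Of 73 oxidative phosphorylation subunits, 4 (5.48%) were at least 2-fold lower and 1 (1.37%) was higher, with a median of -0.39. After quantile normalisation 2 were lower and the median was -0.11. Ndufa6, a subunit of complex I, read 77.2 and 19.4, 3.98-fold lower, and Cyc1 of complex III 74.5 and 34.7. Cox4i2, the isoform of cytochrome oxidase subunit 4 known from low oxygen, read 0.301 and 1.40, 4.64-fold higher. Among antioxidant enzymes, 2 of 36 compared were higher, Gpx3 and Hmox2, and 2 lower, Gss and Mgst3. Each share was 5.56%, beside 7.69% higher and 6.16% lower over all genes compared. Both Gss and Mgst3 were within 2-fold after quantile normalisation. Gpx1, the main glutathione peroxidase of red cells, read 274 and 148.

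Hepatocyte markers kept their sum, while the urea cycle list was lower in both sum and median. The apolipoprotein and serpin lists were lower in sum, through bright members, but not in median. Their medians were -0.05 and 0.15, beside -0.16 over all measured genes. The hepatoblast and hepatocyte markers summed to 4098 in wild-type and 4092 in the labelled mutant, and 18 of 20 compared lay within 2-fold. Afp, the alpha-fetoprotein of hepatoblasts, read 582 and 885, and transferrin (Trf) 203 and 303. In contrast, 5 of 34 compared genes of the urea cycle, glucose release and amino acid breakdown were at least 2-fold lower and 1 was higher, with a median of -0.44, and the lower ones numbered 3 to 4 under the rescalings. Their summed intensity went from 681 to 479, and that of the apolipoproteins from 1586 to 1277. Otc, an enzyme of the urea cycle, read 25.9 and 5.92, and Bhmt, which remethylates homocysteine, 33.8 and 9.30. Agxt, which detoxifies glyoxylate, read 1.62 and 0.359, and G6pc, the last step of glucose release, 135 and 56.0. Ass1, another urea cycle enzyme, read 27.7 and 45.1, and Fbp1, an enzyme of glucose synthesis, 1.39 and 4.15, so members of the same pathways differed in direction. Outside the lists, the bile salt exporter Abcb11 read 8.10 and 1.24, and Hao2, an oxidase of hydroxy acids, 3.01 and 0.589. The esterase Ces1d was at least 7.67-fold lower, its value in the labelled mutant being at the floor.

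Secreted liver proteins divided as well. The 6 alpha-1 antitrypsin copies of the Serpina1 family summed to 1434 and 593, 2.42-fold lower, and since the copies are near identical their single probes cannot be separated. Over all serpins the sum went from 1837 to 1035, and 5 of 29 compared were at least 2-fold higher and 4, all Serpina1 copies, were lower, and after cyclic loess 8 were higher. Higher were Serpina3n, an acute phase inhibitor, Serping1, which inhibits the first step of complement, at 10.6 and 25.5, and the neutrophil elastase inhibitors Serpinb1a and Serpinb1b, at 14.1 and 69.0 and at 4.76 and 23.5. Of 20 compared in a list of apolipoprotein names, 4 were higher and 1, the paraoxonase Pon1, lower, at 2.41 and 0.386. The list took in Apobec1, an RNA editing enzyme, and Apobr, a macrophage receptor, by name, and both were among the 4. The brightest apolipoproteins Apoa1 and Apoa2 read 577 and 439, and 324 and 225. Clotting genes were within 2-fold in 27 of 30 cases, near the 86.1% of all genes compared. Plaur, the urokinase receptor of white cells, read 0.281 and 2.95, and F13a1, also made by monocytes, 5.26 and 14.55, while F13b, its liver partner, read 12.4 and 5.35.

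Lipid and drug metabolism showed single genes rather than whole lists. Of 39 compared fatty acid genes, 4 were at least 2-fold higher and 2 lower. Fabp4, a fatty acid carrier of fat cells and macrophages, read 11.1 and 56.2, and the malic enzyme Me1 1.20 and 4.98, while Cpt2, which admits fatty acids to mitochondrial oxidation, read 18.2 and 7.79. Cholesterol genes lay within 2-fold in 22 of 23 cases. The exception was Npc2, a lysosomal cholesterol carrier, at 32.7 and 70.6. Of 21 compared cytochrome P450 enzymes (57 on the array), 4 were higher and 2 lower, with Cyp2a5 at 0.186 and 1.31 and Cyp2e1 at 2.70 and 1.04. These lists had too few members beyond 2-fold to name a direction.

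**Figure D4:**
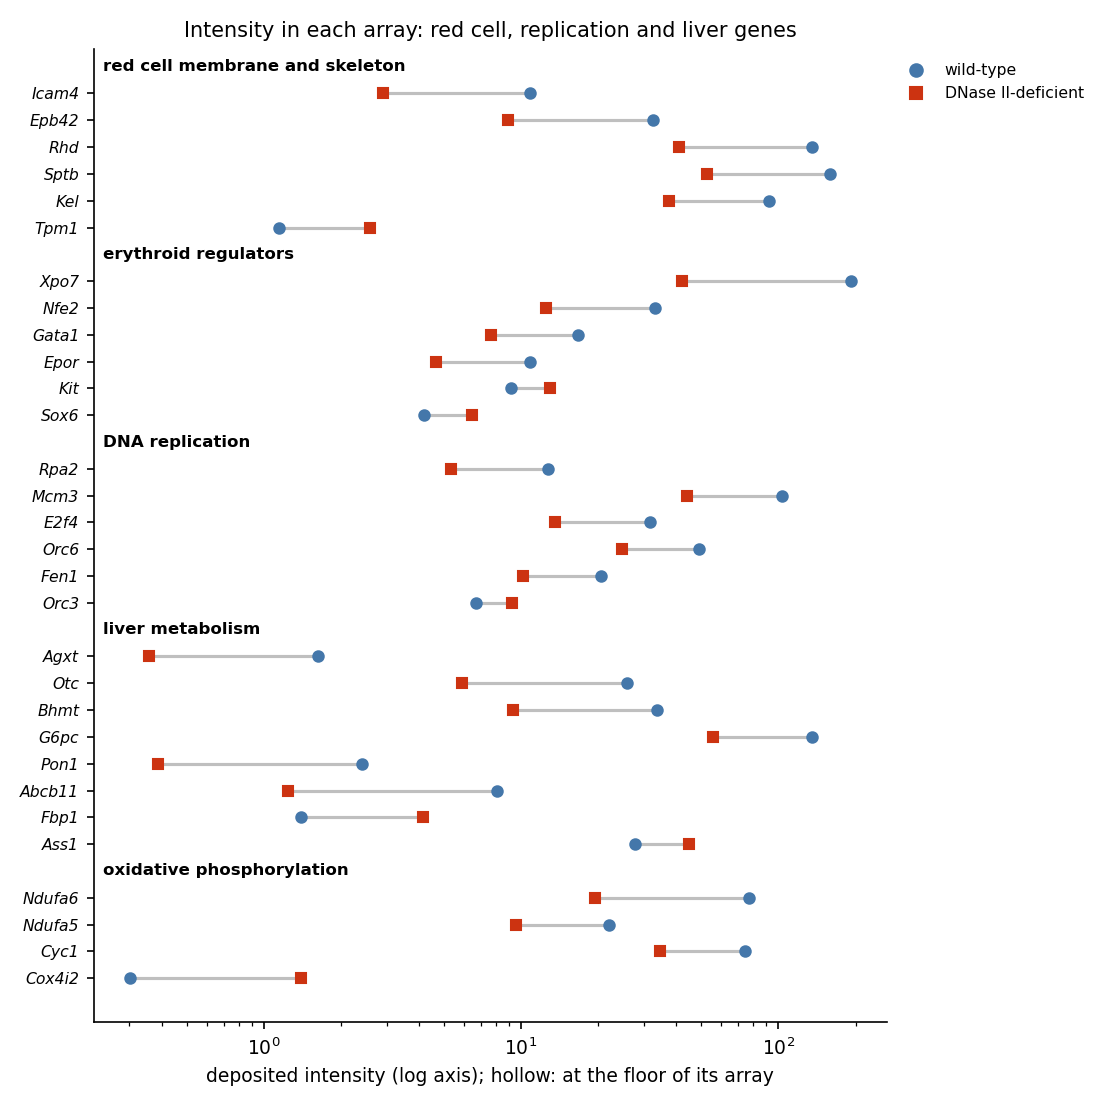
Deposited intensity on a log axis of genes named in the text, wild-type as blue circles and the array labelled DNase II-deficient as red squares, 1 array each. Most red cell, DNA replication and liver enzyme genes lie to the left in the labelled mutant, while Tpm1, Kit, Sox6, Orc3, Fbp1, Ass1 and Cox4i2 lie to the right.

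Other cell types were read from their markers. Megakaryocyte and platelet markers lay within 2-fold in all 11 compared, with Pf4 at 54.6 and 53.4 and a sum of 328 and 264. Mast cell and basophil markers gave 2 higher and 1 lower of 9, and the 2 higher, Fcer1g and Srgn, are also made by other white cells. The mast cell protease gene Mcpt4 read 2.56 and 1.15. Lymphoid genes were mostly dim: 5 of 17 B lineage markers and 7 of 20 T and NK markers were at the floor in wild-type. Vpreb1, of early B cell precursors, read 2.51 and 0.795, and the pan-white cell gene Ptprc 1.20 and 3.78. Markers of other tissues that could be carried along ranged widely in level. Skeletal muscle had 8 of 18 markers at the floor in wild-type and a sum of 24.5 and 15.9, adrenal gland and kidney 6 of 15 and a sum of 25.5 and 21.1, and the pancreas, stomach and intestine 8 of 25 and a sum of 26.7 and 33.6. Adipose markers summed to 94.8 and 139 while Adipoq, Lipe, Retn and Cidea were at the floor in both arrays. Of 6 compared, 2 were higher, Fabp4 and Pparg, and 1 was lower, Car3, at 16.3 and 0.868, and Lpl read 57.8 and 70.5. Yolk sac and placenta markers summed to 483 and 398, with 8 of 16 at the floor in both arrays and 1 of 6 compared higher and 1 lower. Most of that sum came from Rbp4, at 326 and 267, and Apom, at 131 and 103. Rbp4 is also on the hepatocyte list, so the sum does not show tissue of yolk sac or placenta. The mesothelium and bile duct list, with Msln and Sox9 at the floor in both arrays, had a sum of 46.1 and 64.5. Its gene Wt1 was higher on 1 of its probes only.

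**Figure D5:**
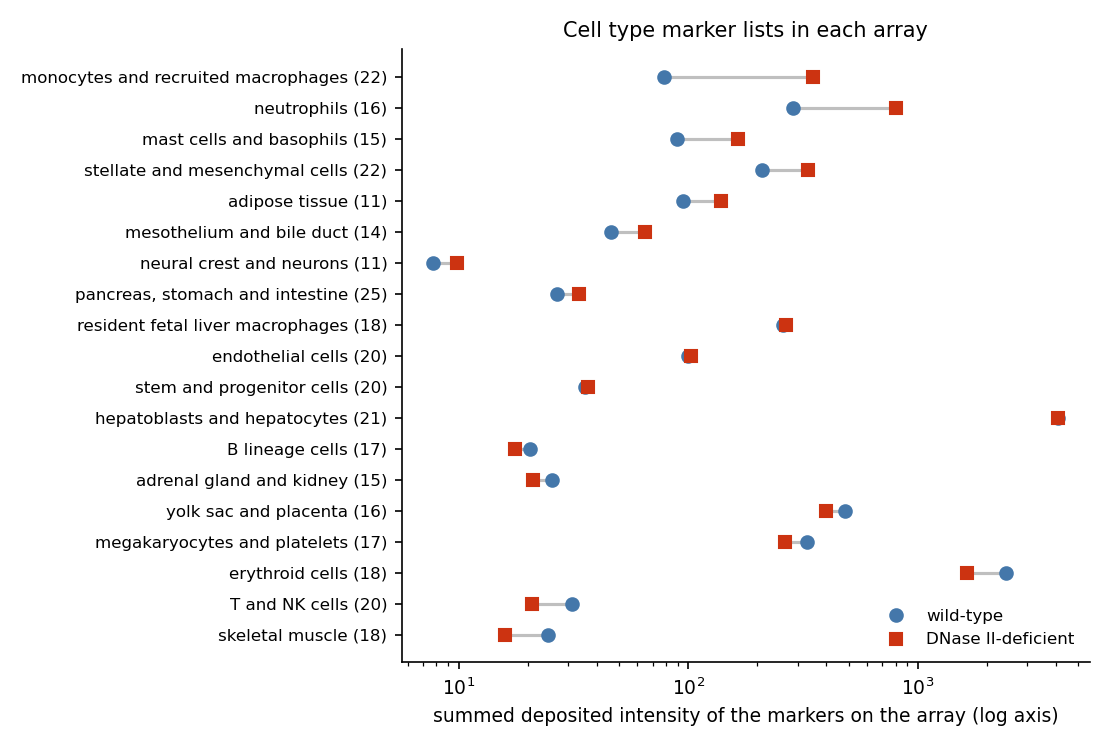
Summed deposited intensity of the markers on the array for 19 cell type lists on a log axis, values below 0 taken as 0, wild-type as blue circles and the array labelled DNase II-deficient as red squares, with the number of markers on the array in brackets. Monocyte and neutrophil sums lie furthest to the right of wild-type, erythroid, T and NK and muscle sums lie to the left, and hepatocyte, endothelial and resident macrophage sums nearly coincide. The T and NK sum, 31.3 and 20.8, includes Eomes at 18.2 and 6.36, and the median of that list was 0.08. Sums of different lists are not comparable with each other.

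Beyond all lists, the 25 largest positive differences measured in both arrays held white cell genes and metabolic enzymes. Adam8, a metalloprotease of white cells, read 0.476 and 5.79, the chemokine receptor Ccr1 1.05 and 7.72, the inhibitory receptor Lilr4b 1.44 and 13.2 and the pyrin gene Mefv 0.497 and 2.87. Lrg1, a secreted acute phase glycoprotein, was 12.4-fold higher, at 0.303 and 3.74. Metabolic genes among them were Upp1, which breaks down uridine, at 0.199 and 2.78, Xdh, which makes uric acid, at 0.308 and 2.52, Sat1, which breaks down polyamines, at 2.23 and 12.8, and the arginine transporter Slc7a2 at 0.350 and 1.97. Plod2, which hydroxylates collagen lysines, read 0.325 and 1.78, and Bhlhe40, a transcriptional repressor, 1.54 and 8.70. Kcne3, a potassium channel subunit, had the largest difference of the 25, at 0.497 and 8.89. Thrb, a thyroid hormone receptor gene, read 0.421 and 7.18 on 1 probe, but 0.694 and 0.518 on the second and below the floor on the third. Among genes at the wild-type floor, Ch25h, which makes 25-hydroxycholesterol, was at least 24.5-fold higher, the neutrophil chemokine gene Cxcl2 at least 18.6-fold and the leukotriene receptor Cysltr1 at least 8.68-fold. The largest bound, at least 82.2-fold, belonged to the vomeronasal receptor gene Vmn1r41 on 1 probe.

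At the other end, the 20 largest negative differences outside the lists were of mixed kinds. Tert and Cspp1 were lowest, at 190 and 0.214 and at 20.1 and 0.373, with log2 differences of -9.80 and -5.75. Each rests on 1 probe and 1 spot per genotype, so a faulty reading cannot be told from a difference. Ptp4a3, a phosphatase, was lower on all 3 of its probes, at 101 and 19.7, 26.3 and 8.94, and 31.0 and 16.2. Kctd14 read 107 and 15.6, Arrb1, the receptor adaptor beta-arrestin 1, 34.1 and 7.35, and the melanocortin receptor partner Mrap 12.1 and 2.58, each on 1 probe. Genes for olfactory and visual proteins were in this group too, Olfr49 at 2.30 and 0.344 and Arr3 at 15.7 and 3.44, the second probe of Arr3 being at 0.210 and below the floor. Among genes outside the interferon lists with several probes, the probes not chosen that exceeded an array median mostly pointed the same way. For 2-fold higher genes 11 of 13 other probes had the same sign and 8 were also 2-fold, and for 2-fold lower genes 22 of 23 had the same sign and 9 were also 2-fold. None was 2-fold in the opposite direction.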

How the data were processed

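Poly(A) RNA of fetal liver was hybridised to CodeLink arrays and detected with Cy5, per the labels' protocols, and the authors deposited 1 normalised intensity per probe and array on a linear scale. For software version, background method and normalisation, nothing is stated in these labels. Values at or below 0 numbered 267 and 224 in the wild-type and DNase II-deficient arrays. A common scale hides differences in total RNA, and dim probes are uncertain. An array has no depth, and the small number of arrays limits precision.

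Of the 20174 probes, 15043 had 1 gene symbol in the platform annotation, 38 several and 5093 none, and 14987 matched the RefSeq gene table of GRCm38.p6, with 0 symbols differing. For 1246 genes with several probes, the brightest by mean log2 level was used. Intensities were floored at each array's 25th percentile and log2 transformed, and genes above the array median in either array were compared. A gene at its floor in 1 array gives a lower bound, written "at least". Levels of different probes are not compared. The spread is 1.4826 times the median absolute deviation over the 500 genes nearest in level.

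The members, gene lists and rules were chosen with earlier results of these data known. Genes named were up to 8 members per list with the largest difference in the direction of the list median, up to 4 against it and list members with bounds of at least 4-fold, then the 25 largest positive and 20 largest negative differences and 10 largest bounds outside the lists, Dnase2a and the 10 brightest genes. Genes with clone-based names were counted and not named. Further list members beyond 2-fold, members named for contrast, genes at the floor and the flanking genes were named after their values were seen. Alternatives were quantile, 75th percentile and cyclic loess scaling, centring, other floors, a pseudocount, other level filters and the mean over probes. Python 3.11.15 with pandas 2.3.3, numpy 2.4.6 and statsmodels 0.14.6 was used, and the steps were tested on simulated data.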

Additional observations from a re-analysis of the deposited data

How the results depend on the processing

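Of 309 named genes that were at least 2-fold different, from 260 to 309 remained so under the 10 alternatives tried, except with a filter at the 75th percentile, where 183 did because fewer genes were compared. Of 64 gene lists outside the interferon lists, 20 had a median that changed sign under at least 1 of 4 rescalings. The number of genes at least 2-fold higher was 645 and became 313 with the filter at the 75th percentile, which compares 4608 genes. The 517 at least 2-fold lower became 288 with cyclic loess, 298 when centred on the median and 321 with that filter. The 224 at least 4-fold higher became 136 with the floor at the array median, 133 with log2 of the value plus 0.5 and 126 with that filter. The 46 at least 4-fold lower became 27, 25, 23 and 28 with cyclic loess, centring, the pseudocount of 0.5 and that filter. The median of the genes compared was -0.21 as deposited, 0.03 after cyclic loess and -0.26 with that filter. Dim genes at or near the floor carry only bounds, and no alternative replaces the missing replicates.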
